A study of Mus musculus with 9 samples.

Results

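*Cilp*, *Gpnmb*, *C1qtnf1* and *Fxyd6* are 4 of the 8329 genes in the expression table and of the 1948 that passed a filter on low values. They were chosen by their measured FPKM, high in resting periosteal cells and low in marrow stromal cells, and for each of them it was asked whether that level was kept or lost 3 days after the bone was grafted. All 4 passed the filter, which asked for at least 1 FPKM (fragments per kilobase of gene length, scaled to the library total) in at least 3 of 9 libraries.

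The cells came from wild-type (WT) C57BL/6J mice and were sorted fresh by flow cytometry, in the study's gate as CD45- Ter119- CD31- CD51+ CD200+ cells. Mesenchymal stem cells of the marrow (BM-MSCs) and skeletal stem cells of the periosteum (P-SSCs) were taken at steady state, labelled day 0. Graft P-SSCs were taken from the periosteum of donor femurs 3 days after these had been placed under the skin of a recipient's back, which is the study's model of acute bone injury. Each group had 3 libraries from different mice, and the label of replicate 2 joins 2 numbers in both steady-state groups. What these numbers stand for is not said in the labels. The paper states that RNA of 2 mice was pooled in some cases. The graft libraries hold only cells that were in the gate at that time, and the age and sex of the mice are not in the labels used here.

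The 4 genes make proteins that work outside the cell or at its membranes. *Cilp* encodes cartilage intermediate layer protein, a secreted matrix protein that binds growth factors of the TGF-beta family and interferes with IGF1 signalling. *C1qtnf1* encodes a secreted protein of the C1q/TNF family, *Gpnmb* a glycoprotein of lysosomal and surface membranes that is abundant in osteoclasts, macrophages and pigment cells, and *Fxyd6* a small membrane protein that regulates the sodium pump Na,K-ATPase. The periosteum is the fibrous sheath on the outside of bone, with a matrix-rich layer of fibroblasts over a layer of skeletal progenitors.

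*Cilp* lies on chromosome 9 from 65265180 to 65280605, *Gpnmb* on chromosome 6 from 49036546 to 49070929, *C1qtnf1* on chromosome 11 from 118428203 to 118449963 and *Fxyd6* on chromosome 9 from 45370185 to 45396159, all protein-coding and on the plus strand of GRCm38. The stretch of 250 bases that ends just before the RefSeq start of the gene (GRCm38.p6) is shown, as a description, for the 3 genes found by symbol. Each window is written 5′ to 3′ on the plus strand, at chr9:65264930-65265179 for *Cilp*, chr6:49036268-49036517 for *Gpnmb* and chr9:45369935-45370184 for *Fxyd6*, and capitals mark the letters of a RUNX motif.
Cilp: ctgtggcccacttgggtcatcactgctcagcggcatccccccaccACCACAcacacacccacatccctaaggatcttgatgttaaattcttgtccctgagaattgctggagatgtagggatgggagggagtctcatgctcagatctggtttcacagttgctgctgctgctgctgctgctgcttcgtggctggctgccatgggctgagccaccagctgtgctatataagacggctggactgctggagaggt
Gpnmb: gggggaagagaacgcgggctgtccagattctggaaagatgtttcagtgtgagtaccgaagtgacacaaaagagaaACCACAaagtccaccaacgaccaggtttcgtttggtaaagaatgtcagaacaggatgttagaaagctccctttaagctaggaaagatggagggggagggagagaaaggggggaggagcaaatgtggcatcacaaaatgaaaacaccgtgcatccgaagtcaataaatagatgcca
Fxyd6: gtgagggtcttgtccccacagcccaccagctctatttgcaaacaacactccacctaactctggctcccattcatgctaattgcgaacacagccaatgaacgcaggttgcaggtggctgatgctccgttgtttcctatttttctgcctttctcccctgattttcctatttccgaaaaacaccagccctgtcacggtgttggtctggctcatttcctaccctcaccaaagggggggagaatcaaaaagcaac

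The windows were searched on both strands for 7 motifs. The RUNX motif TGTGGT, known as a binding sequence of the skeletal factor RUNX2, was found on the minus strand, where it reads ACCACA in the printed strand, starting 205 bases before the gene start in *Cilp* and 175 bases before it in *Gpnmb*. It was found in 14.2% of 27025 mouse promoter windows of the same length. The other letters searched were TGANTCA of AP-1 (6.87% of windows), CAGACA of SMAD (17.1%), GGAATG of TEAD (12.6%), TATAAA of the TATA box (13.0%), CACGTG of the E-box (6.05%) and TCACGTG of the MiT/TFE M-box (3.15%), which contains the E-box. None of these 6 was in the 3 windows. The GC content was 56.0% in *Cilp*, 47.2% in *Gpnmb* and 50.4% in *Fxyd6*, against a median of 52.0% over all windows.

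The libraries held 16890241 to 21315438 fragments, the totals by which the FPKM had been divided. Over the genes tested, Pearson's r of log2(FPKM + 1) was 0.982 to 0.992 between graft libraries, 0.945 to 0.956 between BM-MSC libraries and 0.858 to 0.960 between P-SSC libraries, of which replicate 3 stood apart. Results are therefore given with and without P-SSC replicate 3 where it is high. Of the genes of the sorting gate, *Ptprc* (CD45) was analysed here, and it was at 0 in all P-SSC libraries, at 0.113 to 0.311 FPKM in the grafts and at 0.326 to 1.35 FPKM in BM-MSCs. *Postn*, a defining periosteal gene, was at 390.5 to 476.4 FPKM in P-SSCs, 782.2 to 879.1 FPKM in the grafts and 90.6 to 124.7 FPKM in BM-MSCs. *Ogn*, the other periosteal marker analysed, went the opposite way in the grafts, from 276.6 to 347.2 FPKM in P-SSCs to 63.6 to 86.6 FPKM, with 73.0 to 141.9 FPKM in BM-MSCs. In bulk samples, fewer cells that express a gene and less RNA of it per cell cannot be told apart.

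*Cilp* stayed the highest of the 4 genes in the grafts. Its FPKM was 351.7, 262.7 and 381.3 in the P-SSC libraries (replicates 1, 2 and 3), which is 28764, 19315 and 30005 fragments. In the grafts it was 122.1, 124.7 and 156.7 FPKM, or 8938, 11003 and 11650 fragments. In BM-MSCs it was 0.0286, 0.0257 and 0.0397 FPKM, which is 2, 2 and 3 fragments in all. The graft libraries lay below every P-SSC library and far above every BM-MSC library, with no overlap of any groups. All P-SSC libraries were above all BM-MSC libraries for each of the 4 genes, as their choice required, and for 12.9% of all genes tested.

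The mean of *Cilp* was 331.9 ± 61.7 FPKM in P-SSCs, 134.5 ± 19.3 FPKM in the grafts and 0.0313 ± 0.0074 FPKM in BM-MSCs (SD, n = 3 each). The graft mean was 40.5% of the P-SSC mean. Summed over the libraries of a group and set against their totals, the grafts held 4275 times as many *Cilp* fragments as BM-MSCs (95% interval 2075 to 10634, exact, for counting error only). The interval is wide because the 3 BM-MSC libraries had 7 fragments together. Among the 8329 genes, the mean of *Cilp* ranked 51 in P-SSCs, 147 in the grafts and 2692 in BM-MSCs. Only 3609 of these genes were above 0 in any library, and 2304 to 2521 were above 0 in each BM-MSC library.

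*C1qtnf1* fell to the marrow level. It was at 331.1, 231.1 and 242.1 FPKM in the P-SSC libraries and at 35.1, 32.8 and 30.7 FPKM in the grafts. BM-MSC replicates 1 to 3 had 26.2, 49.5 and 27.1 FPKM. Every graft library was below every P-SSC library and inside the range of the BM-MSC libraries, of which replicate 2 was the highest.

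The mean of *C1qtnf1* was 268.1 ± 54.8 FPKM in P-SSCs, 32.9 ± 2.19 FPKM in the grafts and 34.3 ± 13.2 FPKM in BM-MSCs (SD, n = 3 each), so the grafts held 12.3% of the P-SSC level. The order of the groups was P-SSC first, with BM-MSC and graft not told apart by their spread. The graft libraries were the most even, with a coefficient of variation of 6.66%, against 20.5% in P-SSCs and 38.7% in BM-MSCs.

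*Gpnmb* lost the largest share of its level among the 4 genes. It had 93.6, 57.3 and 176.7 FPKM in P-SSC replicates 1, 2 and 3, and 2.71, 4.58 and 11.4 FPKM in the grafts, which is 86, 175 and 367 fragments. In BM-MSCs it had 2 fragments in replicate 1 (0.0660 FPKM) and 0 in replicates 2 and 3, which allows up to 0.0889 and 0.0916 FPKM there at 3 fragments. The 3 groups did not overlap, and the spread was wide within both groups of periosteal cells, with replicate 3 the highest in each.

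The mean of *Gpnmb* was 109.2 ± 61.2 FPKM in P-SSCs and 6.23 ± 4.57 FPKM in the grafts (SD, n = 3 each), which is 5.70% of the P-SSC mean. The grafts still held 297 times as many fragments as BM-MSCs (95% interval 82.0 to 2461, exact, for counting error only), against 2 fragments in the marrow libraries. In rank by mean FPKM, *Gpnmb* went from 154 of 8329 genes in P-SSCs to 1111 in the grafts.

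*Fxyd6* moved as *C1qtnf1* did, at lower FPKM. It was at 109.3, 74.2 and 72.6 FPKM in the P-SSC libraries and at 9.49, 10.4 and 11.6 FPKM in the grafts. The BM-MSC libraries had 6.85, 6.93 and 17.8 FPKM. The grafts were again below every P-SSC library and within the range of the BM-MSC libraries, in which replicate 3 stood above the others.

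The mean of *Fxyd6* was 85.4 ± 20.7 FPKM in P-SSCs, 10.5 ± 1.04 FPKM in the grafts and 10.5 ± 6.29 FPKM in BM-MSCs (SD, n = 3 each). The grafts held 12.3% of the P-SSC level. As for *C1qtnf1*, the marrow and graft levels were not told apart by their spread.

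**Figure D1:**
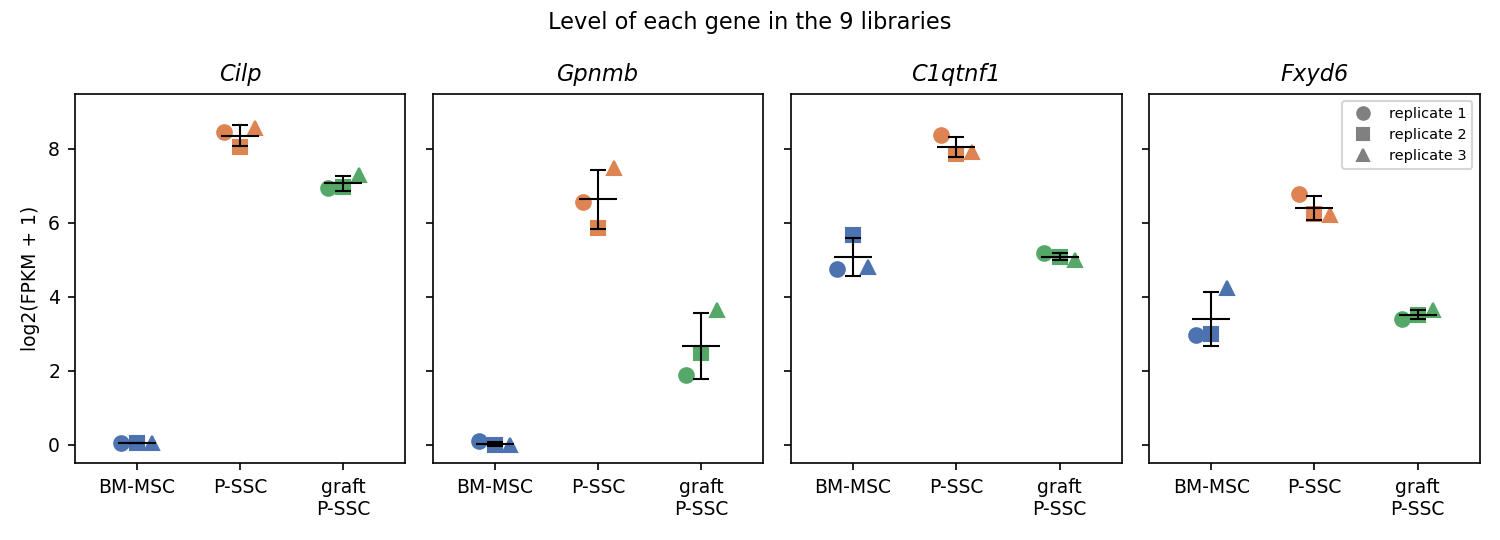
Level of *Cilp*, *Gpnmb*, *C1qtnf1* and *Fxyd6* in the 9 libraries. The y axis is log2(FPKM + 1), each symbol is 1 library (circle, square and triangle for replicates 1, 2 and 3), and the bars give the group mean and SD of 3 libraries. The graft libraries lie below all P-SSC libraries for each gene. For *Cilp* and *Gpnmb* they lie above all BM-MSC libraries, and for *C1qtnf1* and *Fxyd6* inside their range.

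**Figure D2:**
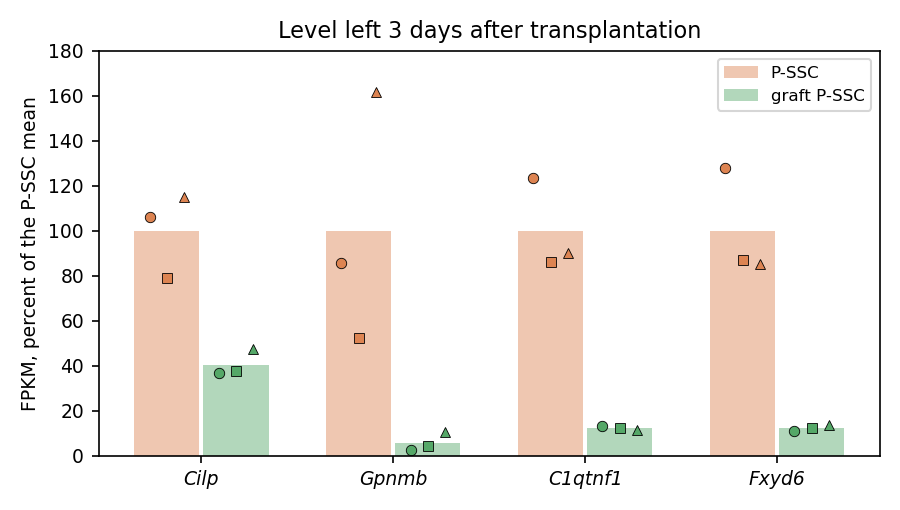
FPKM of each gene in P-SSCs (orange) and graft P-SSCs (green) as a percent of the P-SSC mean. Bars are means of 3 libraries and symbols are single libraries, with the same shapes for replicates. The graft means stand at 40.5% for *Cilp*, 5.70% for *Gpnmb*, 12.3% for *C1qtnf1* and 12.3% for *Fxyd6*.

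The change after grafting was tested with limma on log2(FPKM + 1) in 1 fit of all genes and libraries. The 4 genes were chosen for high values in these P-SSC libraries, which favours a fall, and with earlier results of the grafts known, so the counts over them are a description beside the background of all genes. All 4 genes were lower in the grafts at a Benjamini-Hochberg adjusted p under 0.05, against 11.5% of all genes tested, and for all 4 every graft library was below every P-SSC library, against 19.0% of all genes. A further 22.6% of all genes were called higher. The median difference of all genes was 0.26 in the other direction. Under median of ratios scaling, the split over all genes changed from 441 higher and 224 lower to 312 higher and 302 lower, and all 4 genes were still lower.

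*Gpnmb* fell by 3.97 on the log2(FPKM + 1) scale (SE 0.50, limma adjusted p = 3.42e-04), the fourth largest decrease of the 1948 genes. *C1qtnf1* fell by 2.97 (SE 0.26, limma adjusted p = 2.95e-05) and *Fxyd6* fell by 2.89 (SE 0.35, limma adjusted p = 2.42e-04), at ranks 25 and 30. *Cilp* fell by 1.29 (SE 0.20, limma adjusted p = 9.74e-04), at rank 143. Measured from that median of all genes, the differences were -4.23 for *Gpnmb*, -3.23 for *C1qtnf1*, -3.15 for *Fxyd6* and -1.55 for *Cilp*. Without P-SSC replicate 3, in which *Gpnmb* and *Cilp* were highest, *Gpnmb* fell by 3.55 (limma adjusted p = 2.30e-04) and *Cilp* fell by 1.18 (limma adjusted p = 0.00119).

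Against BM-MSCs, whose libraries had also taken part in the choice, *Cilp* and *Gpnmb* were higher in the grafts at an adjusted p under 0.05, a call made for 25.7% of all genes tested. Their libraries did not overlap with those of BM-MSCs, as for 40.5% of all genes in this direction. The difference was 7.03 on the log2(FPKM + 1) scale for *Cilp* (SE 0.20, limma adjusted p = 1.70e-08), which only 1 gene exceeded, and 2.64 for *Gpnmb* (SE 0.50, limma adjusted p = 0.00276). With the marrow libraries near 0, the size of these differences depends on the added 1.

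*C1qtnf1* and *Fxyd6* were not called against BM-MSCs. The difference was 0.0026 for *C1qtnf1* (95% interval -0.57 to 0.58, limma adjusted p = 0.994) and 0.12 for *Fxyd6* (95% interval -0.66 to 0.90, limma adjusted p = 0.796), while the median of all genes was 0.28. Its sign turned for both genes under median of ratios scaling, to -0.24 for *C1qtnf1* and -0.10 for *Fxyd6*. It also moved with single marrow libraries, to 0.29 for *C1qtnf1* without BM-MSC replicate 2 and 0.54 for *Fxyd6* without BM-MSC replicate 3, in neither case with a call. A graft level up to 0.58 above the marrow for *C1qtnf1*, or up to 0.90 above it for *Fxyd6*, lies within the intervals.

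**Figure D3:**
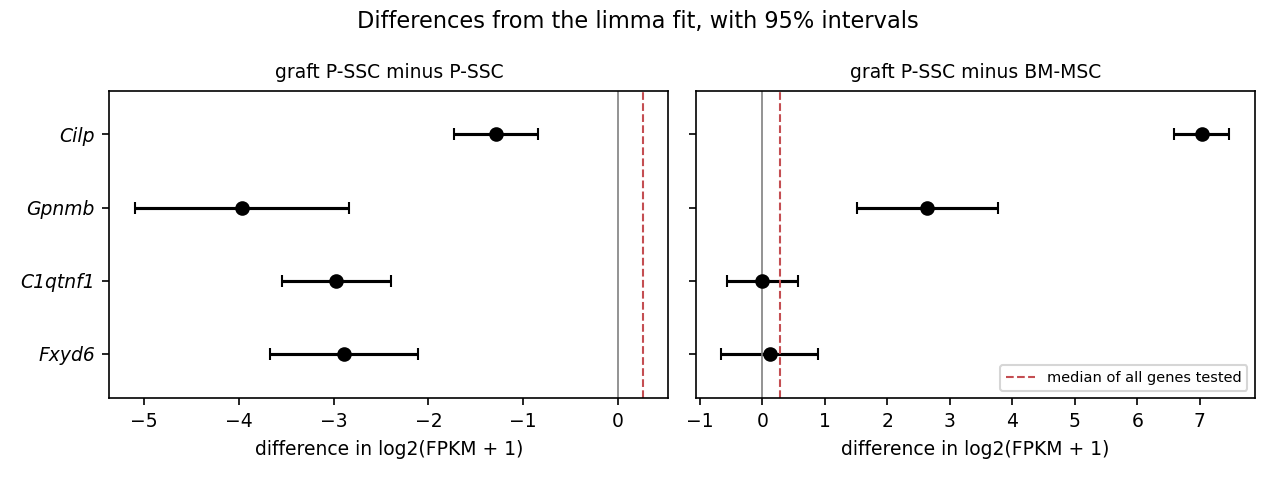
Difference of group means of log2(FPKM + 1) with 95% intervals from the limma fit of 9 libraries, graft P-SSC minus P-SSC on the left and graft P-SSC minus BM-MSC on the right. The dashed line is the median of the 1948 genes tested, at 0.26 and 0.28. On the left all 4 intervals lie below 0. On the right those of *Cilp* and *Gpnmb* lie above 0 and those of *C1qtnf1* and *Fxyd6* include it.

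Where the graft level stood between marrow and resting periosteum was described as the share of the resting difference in log2(FPKM + 1) that remained, with no test because that difference chose the genes. *Cilp* kept 84.5% ± 2.38 and *Gpnmb* 39.9% ± 13.4 of it (SD over 3 graft libraries). *C1qtnf1* kept 0.0858% ± 3.14 and *Fxyd6* 4.02% ± 4.33. The share of *Gpnmb* was 56.6% with 0.1 added to the FPKM in place of 1, while the other 3 shares moved less. On a log scale *Gpnmb* thus stood between the groups, while on the FPKM scale nearly all of its resting level was gone.

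Ratios between the genes within a library were taken of FPKM + 1, in which the scaling of the library cancels except for the added 1. From P-SSCs to grafts the log2 ratio of *Cilp* to *Gpnmb* changed from 1.73 ± 0.56 to 4.41 ± 0.70, that of *Cilp* to *C1qtnf1* from 0.31 ± 0.30 to 1.99 ± 0.28 and that of *Cilp* to *Fxyd6* from 1.95 ± 0.37 to 3.55 ± 0.09 (SD, n = 3 each). In all 3 ratios every graft library was above every P-SSC library. The exact two-sided permutation p was 0.10 for each, the smallest that 3 libraries against 3 can give, and 0.20 after Benjamini-Hochberg adjustment over the 6 pairs.

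The ratio of *C1qtnf1* to *Fxyd6* was 1.65 ± 0.07 in P-SSCs and 1.56 ± 0.22 in the grafts (SD, n = 3 each), and the libraries overlapped (exact permutation p = 0.70). The ratios of *Gpnmb* to *C1qtnf1* and to *Fxyd6* were lower in the grafts by 0.99 and 1.08 on average, with overlapping libraries (exact permutation p = 0.30 for each). Without P-SSC replicate 3 these 2 differences were -0.51 and -0.56, and without graft replicate 3 they were -1.52 and -1.49. Without graft replicate 1 the first was -0.56.

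**Figure D4:**
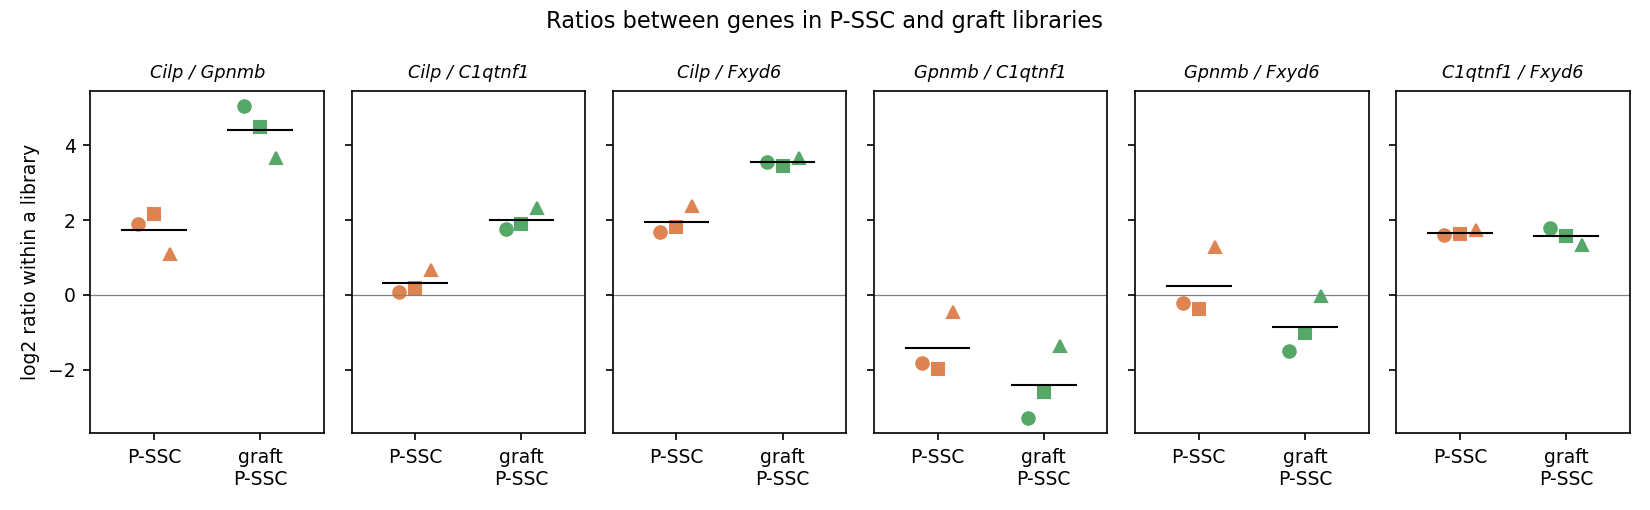
Log2 ratio of FPKM + 1 between pairs of genes within each P-SSC (orange) and graft P-SSC (green) library, with the mean of 3 libraries as a line and the same shapes for replicates. The 3 ratios with *Cilp* on top do not overlap between the groups, and the other 3 do.

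Levels between genes were compared per length. In P-SSCs the order by mean FPKM was *Cilp*, *C1qtnf1*, *Gpnmb* and *Fxyd6*, and in the grafts *Cilp*, *C1qtnf1*, *Fxyd6* and *Gpnmb*. The ranges of *Gpnmb* and *Fxyd6* overlapped in P-SSCs and in the grafts, and those of *Cilp* and *C1qtnf1* overlapped in P-SSCs. Within each P-SSC library, however, *Cilp* was above *C1qtnf1* (log2 ratio of FPKM + 1 from 0.09 to 0.65). Within each graft library *Gpnmb* was below *Fxyd6* (log2 ratio from -1.50 to -0.02). In P-SSCs the log2 ratio of *Gpnmb* to *Fxyd6* ran from -0.37 to 1.27, so their order there differed between libraries. The order rests on the gene lengths in the FPKM, which were recovered from the values as 4140 bases for *Cilp*, 1794 for *Gpnmb*, 1493 for *C1qtnf1* and 1979 for *Fxyd6*. The table lists longer lengths for these genes (4252, 6514, 3131 and 4107), and with those lengths *Fxyd6* at 41.1 was above *Gpnmb* at 30.1 in P-SSCs.

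Among the relatives of the 4 genes, *Cilp2*, the paralog of *Cilp*, was at 2.29, 2.26 and 124.2 FPKM in the P-SSC libraries and at 0.0918 to 0.217 FPKM in the grafts. Its difference was -3.25 on the log2(FPKM + 1) scale, and nearly all of its level was in P-SSC replicate 3. It passed the filter only through the P-SSC libraries, so its fall is given as values. The difference was -1.50 without P-SSC replicate 3. Of 26 genes of the C1q/TNF family, 2 were tested, and *Emilin1*, a matrix glycoprotein of elastic fibres with a C1q domain, rose by 1.76 on the log2 scale (limma adjusted p = 7.44e-05) as *C1qtnf1* fell. It was at 78.4, 57.8 and 78.8 FPKM in the P-SSC libraries and at 248.5, 229.6 and 252.4 FPKM in the grafts, with no overlap. Of all genes tested, 22.6% were called higher in this comparison. The BM-MSC libraries had 206.9, 269.8 and 207.4 FPKM of *Emilin1*, and the grafts were not called against them (0.10, limma adjusted p = 0.645). *Fxyd6* was the only one of 7 FXYD genes analysed here.

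Of 32 genes of cartilage and tendon matrix, 5 were tested. *Cilp* was chosen for its P-SSC level and *Cilp2* passed the filter through the P-SSC libraries, so neither is counted. The other 3 were called lower in the grafts than in P-SSCs, as 11.5% of all genes were. They were *Prelp*, a leucine-rich proteoglycan (-1.34, limma adjusted p = 1.60e-04), *Ogn*, the proteoglycan osteoglycin (-2.03, limma adjusted p = 2.73e-04), and *Tnxb*, the matrix glycoprotein tenascin-X (-3.22, limma adjusted p = 2.31e-05). In the grafts *Prelp* was below the marrow level (-0.86, limma adjusted p = 0.00162), as 16.2% of all genes were, *Ogn* was not called against it (-0.39, limma adjusted p = 0.229) and *Tnxb*, like *Cilp*, stayed above it (2.38, limma adjusted p = 8.41e-05).

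Of 28 genes of the TGF-beta and IGF pathways, 3 were tested (*Smad3*, *Smad6* and *Igf1r*) and 0 were called between grafts and P-SSCs, where 11.5% of all genes were called lower and 22.6% higher, so that few calls could be made among 3 genes. Without P-SSC replicate 3, in which the first 2 were highest, *Smad3* (2.23, limma adjusted p = 0.0497) and *Smad6* (1.42, limma adjusted p = 0.0128) were called higher in the grafts. Of the lysosomal genes, *Lamp2* (-0.47, limma adjusted p = 0.141) and *Mcoln1*, a lysosomal calcium channel (2.19, limma adjusted p = 0.0745), were not called. Under median of ratios scaling *Lamp2* was called lower (-0.79, limma adjusted p = 0.0183), and without P-SSC replicate 3 *Mcoln1* was called higher (3.30, limma adjusted p = 4.65e-04). Of 16 partners of GPNMB and C1QTNF1, *Egfr* fell by 1.04 (limma adjusted p = 0.00218) and *Sdc4*, a heparan sulfate proteoglycan, had a difference of 0.18 (limma adjusted p = 0.673), which was -0.14 under median of ratios scaling.

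Cell type markers were read beside these results. Of 15 macrophage markers, 5 were analysed, and their summed FPKM was 14.5 to 72.3 in P-SSCs, 32.8 to 92.3 in the grafts and 149.6 to 609.6 in BM-MSCs, most of it from *Lyz2*. Of the 3 tested, *Csf1r* was at 5.57 to 6.31 FPKM in the grafts, through which it passed the filter (a difference of 2.23). *Adgre1* was called higher (1.51, limma adjusted p = 0.0413) but not under median of ratios scaling (limma adjusted p = 0.0606), and *Lyz2* had a difference of 0.32 (limma adjusted p = 0.759). *Adgre1*, *Mrc1* and *Ptprc* were at 0 in all P-SSC libraries and above 0 in all graft libraries, while *Lyz2* at 14.2 to 71.9 FPKM and *Csf1r* at 0.248 to 0.835 FPKM were above 0 in every P-SSC library. Their part in the level of *Gpnmb* was not tested. Of 8 Schwann cell markers, 4 were analysed, with summed FPKM of 854.4 to 1149 in P-SSCs, 234.2 to 239.4 in the grafts and 385.3 to 534.7 in BM-MSCs, mostly from *Pmp22*. Of the 3 tested, *Pmp22* (-2.06, limma adjusted p = 2.31e-05) and *Mbp* (-3.02, limma adjusted p = 0.0268, and -2.09, limma adjusted p = 0.0433, without P-SSC replicate 3) fell, and *Ncam1* rose (0.80, limma adjusted p = 0.0355), though not under median of ratios scaling (limma adjusted p = 0.191). *Sox10*, which defines these cells, was at 0.524, 1.20 and 8.43 FPKM in P-SSC replicates 1 to 3 and at 0.179 to 0.432 FPKM in the grafts, and *Mbp* was at 7.79, 27.8 and 108.3 and at 2.59 to 2.83 FPKM. Both were highest in P-SSC replicate 3, as *Gpnmb* was, and their part in its level was not tested.

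Of 4 other lists 1 marker each was analysed. The muscle gene *Myl1* was at 1.77 to 6.47 FPKM in P-SSCs and up to 0.405 FPKM in the grafts, the adipocyte gene *Lpl* at 95.8 to 163.9 and 13.4 to 16.9 FPKM, the mural gene *Notch3* at 0.642 to 1.91 and 0.898 to 2.08 FPKM, and the erythroid gene *Hba-a2* at 2.13 to 20.2 and 0.531 to 3.67 FPKM. *Lpl* was lower in the grafts than in P-SSCs, as the 4 genes were (limma adjusted p = 2.54e-05). *Myl1* would not have passed the filter without the P-SSC libraries, so its fall is given as values. The part of *Myl1* and *Lpl* in the result was not tested. Markers of osteoclasts, endothelium, chondrocytes, tendon, osteoblasts and marrow stroma were not analysed here.

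For each of the 4 genes the 3 genes with the highest Pearson's r of log2(FPKM + 1) over the 9 libraries, which share their totals and group structure, were named. They were picked for their likeness in these libraries, so their values are a description with no test. The genes most like *Cilp* were *Nox4*, an NADPH oxidase (r = 0.991), *Ano3*, a membrane protein of the anoctamin family (r = 0.989), and *Rab4a*, a GTPase of recycling endosomes (r = 0.986). *Nox4* was at 0.0228 ± 0.0234 FPKM in BM-MSCs, 12.2 ± 4.15 in P-SSCs and 7.06 ± 0.78 in the grafts (SD, n = 3 each). Their mean differences between grafts and P-SSCs were -0.66, -0.05 and -0.43, and all 3 were above the marrow in both groups of periosteal cells.

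The genes most like *Gpnmb* were *Tnxb* (r = 0.984), the protease inhibitor *Serpinb7* (r = 0.979) and *Gm45187*, an antisense gene on another chromosome (r = 0.976). *Tnxb* was at 48.2, 44.6 and 49.4 FPKM in the P-SSC libraries and at 4.11, 3.70 and 4.84 FPKM in the grafts, with less spread in P-SSCs than *Gpnmb*. *Serpinb7* and *Gm45187* were at 2.04 to 4.23 and 2.09 to 3.08 FPKM in P-SSCs, at 0.499 to 0.704 and 0.372 to 0.428 FPKM in the grafts and at 0 in BM-MSCs, so that both passed the filter through the P-SSC libraries.

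The genes most like *C1qtnf1* were *Egflam*, which encodes the matrix protein pikachurin (r = 0.993), the complement component *C3* (r = 0.984) and the noncoding RNA *4930404H11Rik* (r = 0.981). *C3* was at 3907, 3905 and 2168 FPKM in the P-SSC libraries, 374.4, 424.6 and 302.3 in the grafts and 323.4, 523.4 and 383.5 in BM-MSCs, so that its grafts too overlapped the marrow. *Fxyd6* was most like the secreted phospholipase *Pla2g2e* (r = 0.966), *4930404H11Rik* (r = 0.966) and *Mbtps1*, the site-1 protease of the Golgi (r = 0.964). Among the 4 genes themselves, r was highest between *C1qtnf1* and *Fxyd6* (0.937) and lowest between *Cilp* and *C1qtnf1* (0.608).

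**Figure D5:**
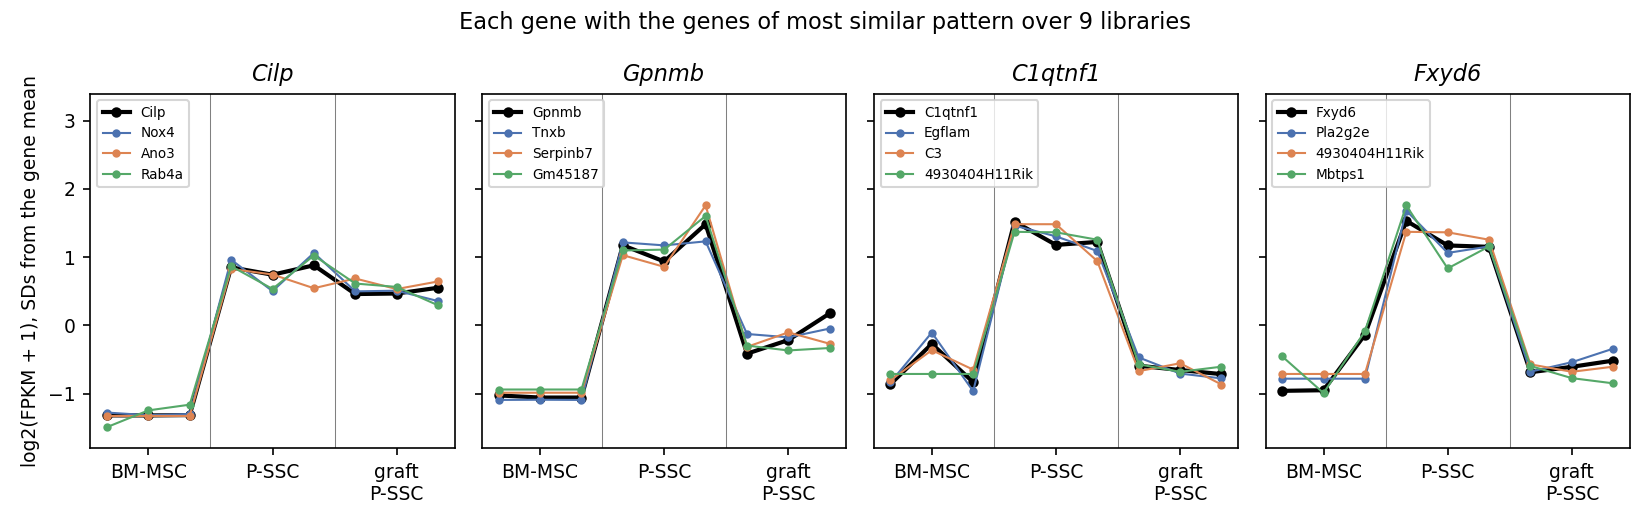
Each gene (black) and its 3 most similar genes (coloured) over the 9 libraries in replicate order within each group, as log2(FPKM + 1) in SDs from the gene's own mean over the libraries. The graft libraries of *Cilp* stay near those of P-SSCs, those of *C1qtnf1* and *Fxyd6* lie at the BM-MSC libraries and those of *Gpnmb* lie between.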

How the data were processed

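RNA from 9 libraries of sorted mouse cells was analysed. The deposited values are FPKM, for which the authors counted fragments per gene and divided them by gene length and library total. The submitters' processing notes name CASAVA, fastp, STAR 2.6.1d, featureCounts 1.5.0-p3 and GRCm38, and the authors compared groups with DESeq2. The annotation release is not given in the sources used here.

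The library totals (16890241 to 21315438) and a whole-number length per gene gave whole fragments for all 1948 genes tested (tolerance 1e-05). That length was the mean of the GENCODE M21 transcripts, rounded down, in 93.9% of 1947 genes, not the length listed in the table. Intervals on fragments are exact at 95% and cover counting error only, since the fragments carry no molecular identifiers.

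FPKM were changed to log2(FPKM + 1), which understates changes of low genes, and genes with at least 1 FPKM in at least 3 of 9 libraries were compared with limma 3.58.1 in R 4.3.3 (eBayes with a trend, two-sided, Benjamini-Hochberg adjustment, threshold 0.05). The procedure was tested on simulated data. The fit also gave P-SSCs against BM-MSCs, but no test of it is reported, since the 4 genes were chosen on that difference. Ratios within libraries were compared by exact permutation with scipy 1.17.1.

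The 4 genes and the lists of families, pathways and cell types were chosen with earlier results of these data known. Named besides the 4 genes are the 3 genes most correlated with each, at most 3 genes of each list with the highest mean FPKM, and the tested genes of the families of *C1qtnf1* and *Fxyd6*. Some genes under this rule are not reported here. Alternatives changed the pseudocount, filter, scaling, libraries, trend and replicate block. A fit with voom weights on the recovered fragments was chosen after seeing the data.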

Additional observations from a re-analysis of the deposited data

How the results depend on the processing

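*Cilp*, *Gpnmb*, *C1qtnf1* and *Fxyd6* stayed lower in grafts than in P-SSCs under each of 9 other settings and without each of 9 libraries. *Cilp* and *Gpnmb* also stayed above BM-MSCs in each of these fits. The adjusted p from limma remained under 0.05 throughout. All of these fits reused P-SSC or BM-MSC values by which the genes had been chosen. The calls that persisted therefore describe the dependence on processing only, and do not remove the effect of that choice. Between grafts and P-SSCs, quantile normalization gave 355 genes called lower in place of 224, and leaving out 1 library gave 149 to 255, with 149 without graft replicate 1. Genes called higher than BM-MSCs numbered 501, and 319 to 667 with 1 library left out, with 319 without graft replicate 1 and 321 without graft replicate 2.

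The difference between grafts and BM-MSCs was reversed for *C1qtnf1* under scaling by median of ratios (-0.24, limma adjusted p = 0.550), quantile normalization (-0.33, adjusted p = 0.379) and voom weights (-0.0056, adjusted p = 0.988), and was -0.15 to 0.29 with 1 library left out. For *Fxyd6* it was -0.10 (adjusted p = 0.835) and -0.30 (adjusted p = 0.520) with the same scalings, and -0.091 to 0.54 with 1 library left out. The change in the ratio of *C1qtnf1* to *Fxyd6* was -0.19 to 0.029 with 1 library left out. The share of the resting difference kept by *Cilp* was 88.5% with a pseudocount of 0.1, 80.9% with median of ratios scaling and 81.6% with quantile normalization, and 82.9% to 85.6% with 1 library left out. For *Gpnmb* it was 56.6% with a pseudocount of 0.1 and 32.6% to 45.8% with 1 library left out. For *C1qtnf1* the scalings gave -7.80% and -10.9%, and leaving out 1 library -5.48% to 8.98%. For *Fxyd6* they gave -3.29% and -9.93%, and leaving out 1 library -3.26% to 15.7%. The cause was not tested.

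Graft and P-SSC libraries share replicate numbers in their titles. After taking out the group means, libraries with the same number were correlated at r = -0.26, -0.09 and -0.43 over the genes tested, so the numbers were not taken as pairs. With the replicate number as a block, 621 genes were called between grafts and P-SSCs (205 lower) and 755 between grafts and BM-MSCs, in place of 665 and 816, and no call of the 4 genes changed (adjusted p of 0.00239, 5.37e-04, 2.53e-04 and 9.71e-04 from limma for *Cilp*, *Gpnmb*, *C1qtnf1* and *Fxyd6* against P-SSCs). Each group had 3 libraries, and in BM-MSCs *Cilp* and *Gpnmb* rest on 7 and 2 fragments, so that their marrow levels are known only as near 0.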
